A study of Mus musculus with 6 samples.

Results

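The 8 genes described here encode the nuclear end of the Hippo pathway: the transcriptional co-activators YAP (gene Yap1) and TAZ (gene Wwtr1), the DNA-binding factors Tead1, Tead2, Tead3 and Tead4, and the vestigial-like TEAD co-factors Vgll3 and Vgll4. They were taken by symbol from a table of 24594 genes, and each symbol matched 1 row. The RNA came from mouse small-intestinal organoids, which are cultured epithelial structures with crypt-like and villus-like parts. They had been grown from single cells for 96 h and then given 5 uM NIBR-LTSi, a compound known to inhibit the kinases LATS1 and LATS2, or DMSO as vehicle for 24 h. Each group had 3 libraries. The labels name no strain, no organoid line and no genetic change, and do not tell whether replicates were separate cultures. The p-values therefore cover the spread among these 6 libraries, which may be technical.

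As background, LATS kinases phosphorylate YAP and TAZ, which are then held in the cytoplasm by 14-3-3 proteins or degraded. Unphosphorylated YAP and TAZ enter the nucleus, where they have no DNA-binding domain of their own and act through TEAD factors. Vgll4 binds TEAD factors in competition with YAP and represses their targets, and Vgll3 binds TEAD factors as a co-factor that can activate genes. In the intestine, YAP is known for its part in regeneration after injury. These regulators are controlled largely at the protein level, by phosphorylation, location and stability, and the data here are levels of messenger RNA.

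The sequences of the promoters are shown because TEAD factors bind the letters GGAATG. RefSeq promoter sequences (build GRCm38.p6) were at hand for 6 of the 8 members, Tead1 and Tead4 being the others. GGAATG or its reverse complement CATTCC was searched for on both strands in the 250 bases before each start site. It was found in 5 of these 6 members: Wwtr1, Vgll3, Yap1, Tead3 and Vgll4, but not in the window of Tead2. Over all genes with such windows, 14.4% held it in at least 1 window (3880 of 27025), and among tested genes 12.9% did. Tead3 had 3 windows and Wwtr1 had 2, which gives them more bases to match than a gene with 1. A match describes letters in a window and is not a measured binding site. The 250 bases before the start sites of Wwtr1 and Vgll3, 2 members called higher, are given 5′ to 3′ on the strand of the gene, with the matched letters in capitals.
Wwtr1 (chr3:57575911-57576160, minus strand): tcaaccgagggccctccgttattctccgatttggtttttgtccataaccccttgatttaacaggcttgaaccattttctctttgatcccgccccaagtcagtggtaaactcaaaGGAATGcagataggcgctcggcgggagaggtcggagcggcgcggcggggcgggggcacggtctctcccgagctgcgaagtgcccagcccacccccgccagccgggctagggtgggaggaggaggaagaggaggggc
Vgll3 (chr16:65814939-65815188, plus strand): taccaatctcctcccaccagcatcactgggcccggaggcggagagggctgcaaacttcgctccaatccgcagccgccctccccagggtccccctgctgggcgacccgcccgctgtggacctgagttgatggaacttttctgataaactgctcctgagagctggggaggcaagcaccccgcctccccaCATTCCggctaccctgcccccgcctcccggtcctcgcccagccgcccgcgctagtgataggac
The matches of Yap1, Tead3 and Vgll4 are shown with their flanks, since these members moved less or were not called. The first Tead3 stretch reaches into a second match 3 bases on, left in lower case.
Yap1 (chr9:8004723-8004746, minus strand): gagtctgcaGGAATGtagcgacgc
Tead3 (chr17:28350709-28350732, minus strand): ggccgggctCATTCCgtacattcc
Tead3 (chr17:28350973-28350996, minus strand): gacgagcgaGGAATGgggtgcgcg
Vgll4 (chr6:114969271-114969294, minus strand): gtggggtggGGAATGctgagaaat
In Wwtr1 the first matched letter lay 136 bases before the start site of the window shown, and in Yap1 it lay 141 bases before. In Vgll3 the distance was 63 bases and in Vgll4 82 bases. The matches of Tead3 lay 123 and 114 bases before 1 start site and 182 bases before another. The letters were present in members called higher (Wwtr1, Vgll3 and Vgll4) and in members not called (Yap1 and Tead3). Most alternatives did not keep the call of Vgll3, and Tead1 and Tead4 had no sequence to search. Whether the letters have a part in any change was not tested.

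With NIBR-LTSi, Wwtr1, Tead4 and Tead1 rose 4.08-fold, 4.27-fold and 2.08-fold, and Vgll4 rose 1.20-fold. Vgll3 was called higher at 2.49-fold from very few counts, a call that most alternatives did not keep. Yap1, Tead3 and Tead2 were not called. Thus 5 of the 8 members were called higher and none lower, where 22.8% of the 12592 tested genes were called higher and 19.2% lower (42% in all). Here and below a call is an adjusted p under 0.05 in edgeR's quasi-likelihood test, two-sided, with Benjamini-Hochberg adjustment over all tested genes. All 8 members passed the filter on low counts, but Wwtr1, Tead2, Tead4 and Vgll3 reached its minimum in all libraries of the NIBR-LTSi group only, so the count of 5 carries that selection. The groups did not overlap for 6 members higher with NIBR-LTSi, beside 28% of tested genes, and for Yap1, which was lower, beside 24.5%. In either direction 52.5% of tested genes showed such a separation. The 6 include Wwtr1, Tead2, Tead4 and Vgll3, so this count carries the same selection. Levels are CPM, read counts scaled to library size with TMM factors, and fold changes are NIBR-LTSi over DMSO on the log2 scale with a standard error (SE).

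**Figure D1:**
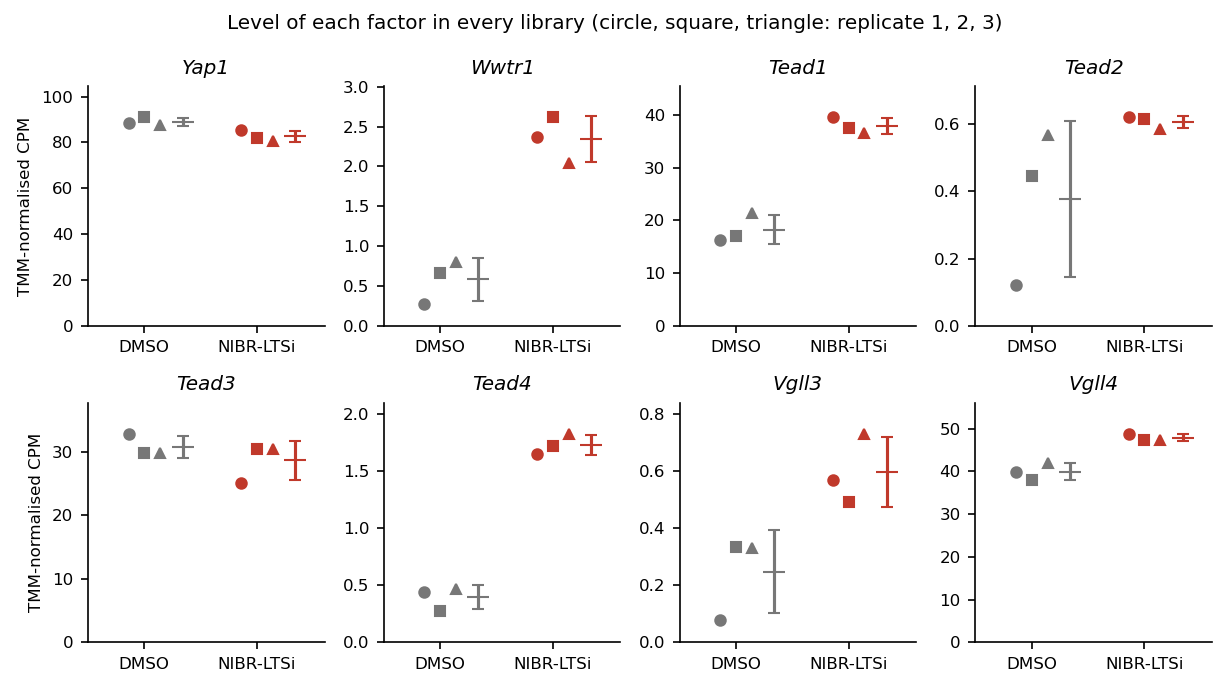
TMM-normalised CPM (y axis, starting at 0, its own scale in each panel) of the 8 factors in the 6 libraries. Points are libraries, with circle, square and triangle for replicates 1, 2 and 3, and the bar beside them is the mean ± SD of the 3 libraries. Wwtr1, Tead1, Tead2, Tead4, Vgll3 and Vgll4 lie higher in every NIBR-LTSi library than in any DMSO library, as do 28% of tested genes. Tead2 and Vgll3 rest on very few counts, and the Tead3 groups overlap.

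Total counts per library ran from 18395427 to 26767043. The labelled tissue was checked against its markers, and all 16 small-intestinal epithelium markers were tested and none was at 0. Their summed level was 18720 to 19630 CPM in DMSO and 16370 to 17510 CPM in NIBR-LTSi libraries. Of the 16, 4 were called higher and 8 lower, beside 22.8% and 19.2% of all tested genes. Higher were Krt8, Krt18, Krt19 and Hnf4a. Lower were Vil1, Cdx1, Fabp1, Fabp2, Lyz1, Chga, Lgr5 and Olfm4. Fabp1, the most abundant of the 16, went from a mean of 7369 to 5148 CPM. The epithelial markers thus differed between the groups, and the reason was not tested. Of 10 fibroblast and smooth muscle markers, Dcn, Lum and Des had no count in any library, and the list summed to 2.55 to 3.59 CPM with DMSO and 2.17 to 2.53 CPM with NIBR-LTSi, most of it Pdgfrb. The collagen genes Col1a1, Col1a2 and Col3a1 averaged at most 0.0472 CPM with DMSO and had no count with NIBR-LTSi. Of 7 endothelial markers 4 were at 0 in all libraries (0.921 to 1.18 CPM in sum with DMSO, 0.512 to 0.777 CPM with NIBR-LTSi), as were 4 of 9 immune markers (10.8 to 11.7 and 11.9 to 14.2 CPM, mostly Itgam) and 2 of 7 markers of neurons and glia (6.16 to 7.08 and 4.85 to 5.03 CPM, mostly Ret). Most genes of these 4 lists fell below the low-count filter, with 1, 1, 3 and 2 tested in the order given. Of those tested only Ret was called, lower with NIBR-LTSi, beside 42% of all tested genes called in either direction. Pdgfrb averaged 2.70 CPM in the DMSO libraries and 1.96 CPM in the others (adjusted p = 0.0771), the latter between the NIBR-LTSi means of Tead4 and Wwtr1. The part of other cell types in the members' results was not tested. In bulk RNA, more cells that express a gene and more RNA per cell cannot be told apart.

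Among the co-activators, the gene of TAZ moved and that of YAP barely did. Wwtr1 (Entrez 97064; chromosome 3, 57455644 to 57575910) had 7, 12 and 17 counts in the DMSO libraries (replicates 1 to 3, as in all such series below) and 46, 64 and 56 counts in those with NIBR-LTSi. Scaled to depth, these were 0.280, 0.666 and 0.803 CPM with DMSO against 2.37, 2.62 and 2.05 CPM with NIBR-LTSi. The groups did not overlap, and DMSO replicate 1 was the lowest library. The mean went from 0.583 ± 0.271 to 2.35 ± 0.29 CPM (SD, n = 3 each), or 2.03 ± 0.33 (SE) as a log2 fold change (adjusted p = 4.19e-04). The 95% interval of the fold runs from 2.47 to 6.73, on a total of 36 counts in the DMSO group and 166 in the NIBR-LTSi group. A larger log2 fold change was found in 0.643% of tested genes. Wwtr1 reached the filter's minimum in all libraries of the NIBR-LTSi group only, so this rank carries that selection.

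Yap1 (Entrez 22601; chromosome 9, 7931999 to 8004638) was at 88.4, 90.9 and 87.5 CPM with DMSO and at 85.3, 81.9 and 80.8 CPM with NIBR-LTSi. All NIBR-LTSi libraries lay just under all DMSO libraries, a pattern shown by 24.5% of tested genes. The means were 88.9 ± 1.8 and 82.7 ± 2.4 CPM (SD, n = 3 each) and the log2 fold change was -0.11 ± 0.04 (SE; adjusted p = 0.0694). The 95% interval of the fold, 0.871 to 0.992, bounds the difference at a small size. Yap1 was called lower in 3 of the alternatives: after adjustment for gene width (log2 fold change -0.20, adjusted p = 0.00527), with DESeq2 size factors (-0.12, adjusted p = 0.0479) and when NIBR-LTSi replicate 1 was left out (-0.14, adjusted p = 0.0442). With library totals only it was -0.06 (adjusted p = 0.251). Yap1 shares 116 of its 9257 exonic bases with Gm20416, a transcript on the opposite strand in the GENCODE M21 annotation, and the strand setting of the counting is not given in the sources used here.

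Because genes differ in length, the 2 co-activators were set side by side as CPM per kilobase (kb) of the deposited gene width. Yap1 was at 9.61 ± 0.19 CPM per kb with DMSO and Wwtr1 at 0.122 ± 0.057 CPM per kb (SD, n = 3 each). Wwtr1 made up 0.611, 1.40 and 1.74% of the sum of both in the DMSO libraries (replicates 1 to 3) and 5.11, 5.83 and 4.67% in those with NIBR-LTSi. TAZ messenger thus remained the minor one in every library, while its share did not overlap between the groups. The sum of both was 9.73 ± 0.20 CPM per kb with DMSO and 9.42 ± 0.28 CPM per kb with NIBR-LTSi (SD, n = 3 each), and its groups overlapped.

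The 4 TEAD genes encode closely related factors with a shared TEA DNA-binding domain, and they did not move alike. Tead1 (Entrez 21676; chromosome 7, 112679356 to 112906784) was at 16.2, 17.1 and 21.3 CPM with DMSO and at 39.5, 37.4 and 36.5 CPM with NIBR-LTSi. The lowest NIBR-LTSi library was well above the highest DMSO library, DMSO replicate 3. The mean went from 18.2 ± 2.7 to 37.8 ± 1.5 CPM (SD, n = 3 each), or 1.05 ± 0.09 (SE) as a log2 fold change (adjusted p = 5.26e-06). Of the members called, it had the smallest adjusted p, and 2.64% of tested genes had a larger log2 fold change.

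Tead4 (Entrez 21679; chromosome 6, 128227143 to 128300813), a factor known for its part in the trophectoderm of the early mouse embryo, had 11, 5 and 10 counts with DMSO and 32, 42 and 50 counts with NIBR-LTSi. As levels these were 0.440, 0.278 and 0.472 CPM against 1.65, 1.72 and 1.83 CPM. The groups lay far apart relative to their spread, though the DMSO side rests on 26 counts in all. The mean went from 0.397 ± 0.104 to 1.73 ± 0.09 CPM (SD, n = 3 each), or 2.09 ± 0.29 (SE) as a log2 fold change (adjusted p = 1.15e-04; 95% interval of the fold 2.76 to 6.61). Its rise and that of Wwtr1 could not be separated in size, their intervals covering nearly the same range.

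Tead3 (Entrez 21678; chromosome 17, 28331671 to 28350805) was the most abundant family member per length. It was at 32.8, 29.8 and 29.8 CPM with DMSO and at 25.1, 30.5 and 30.4 CPM with NIBR-LTSi. The groups overlapped, and NIBR-LTSi replicate 1 was the lowest library. The log2 fold change was -0.10 ± 0.08 (SE; adjusted p = 0.343), with a 95% interval of the fold from 0.827 to 1.05, which lies outside the interval of Tead1 (1.80 to 2.39).

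Tead2 (Entrez 21677; chromosome 7, 45215792 to 45233468), a family member best known from the early embryo, had 3, 8 and 12 counts with DMSO and 12, 15 and 16 counts with NIBR-LTSi. That is 0.120, 0.444 and 0.567 CPM against 0.619, 0.613 and 0.585 CPM, so that the groups lay side by side without overlapping and DMSO replicate 1 stood low. The log2 fold change was 0.72 ± 0.46 (SE; adjusted p = 0.236). Its 95% interval of the fold, 0.821 to 3.30, holds both no change and the rise seen for Tead1, so a change was not detectable at this depth. Without DMSO replicate 1 the log2 fold change was 0.25. Of its 4788 exonic bases 13 are shared with Cd37 on the opposite strand.

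Set against each other per length, the TEAD messengers shifted in makeup. With DMSO, Tead3 was at 6.98 ± 0.40, Tead1 at 1.62 ± 0.24, Tead4 at 0.110 ± 0.029 and Tead2 at 0.0787 ± 0.0482 CPM per kb (SD, n = 3 each). With NIBR-LTSi, the order was the same: Tead3 was at 6.50 ± 0.69, Tead1 at 3.37 ± 0.14, Tead4 at 0.481 ± 0.025 and Tead2 at 0.127 ± 0.004 CPM per kb. Tead4 and Tead2 did not differ beyond their spread with DMSO, and they did with NIBR-LTSi. Tead3 supplied 82.4, 80.0 and 75.9% of the summed TEAD level with DMSO and 58.1, 63.7 and 64.0% with NIBR-LTSi. Tead1 supplied 15.97, 18.03 and 21.33% with DMSO and 35.9, 30.7 and 30.2% with NIBR-LTSi. The share of Tead4 went from 1.248 ± 0.295% to 4.598 ± 0.174%, also without overlap. The summed TEAD level was 8.79 ± 0.31 CPM per kb with DMSO and 10.5 ± 0.6 CPM per kb with NIBR-LTSi (SD, n = 3 each), higher in every NIBR-LTSi library than in any DMSO library. With exon lengths from GENCODE M21 in place of the deposited widths, an alternative chosen after seeing the data, Tead3 supplied 74.99% with DMSO and 55.6% with NIBR-LTSi, and Tead1 21.9% and 36.5%.

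**Figure D2:**
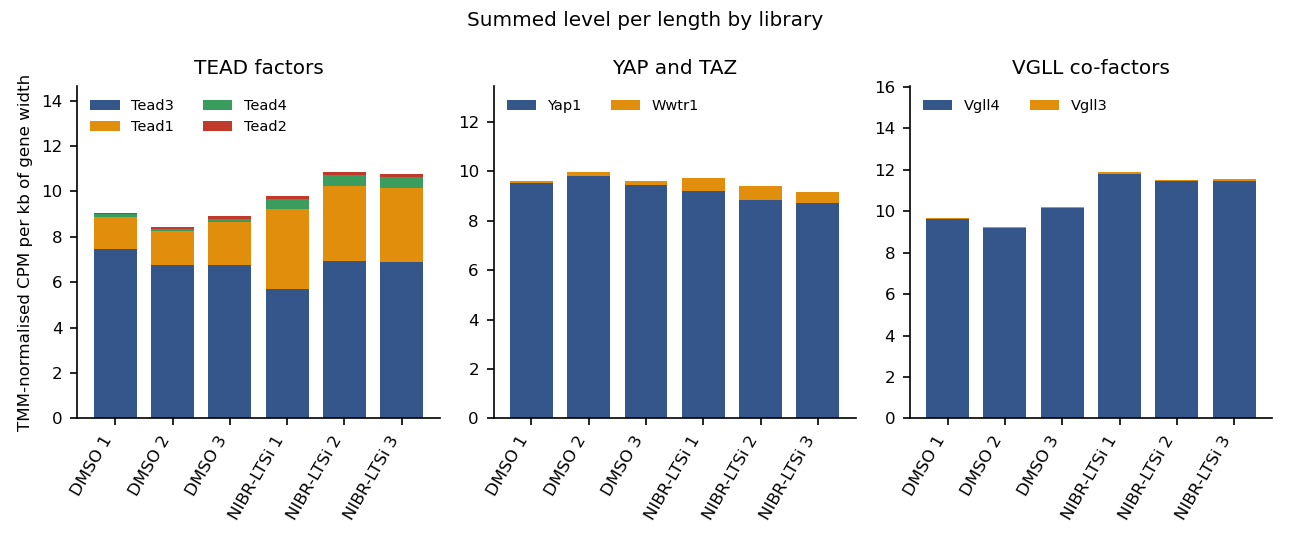
Stacked bars give TMM-normalised CPM per kb of gene width (y axis, starting at 0) for the TEAD genes, for Yap1 and Wwtr1, and for Vgll4 and Vgll3, in each of the 6 libraries. The Tead1 portion widens from 1.62 ± 0.24 to 3.37 ± 0.14 CPM per kb between the groups, while Wwtr1 stays a thin layer on Yap1 and Vgll3 is barely visible on Vgll4.

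The VGLL genes differed in abundance by a wide margin. Vgll4 (Entrez 232334; chromosome 6, 114860621 to 114970007), the repressive TEAD co-factor, was at 39.9, 37.9 and 41.9 CPM with DMSO and at 48.8, 47.3 and 47.4 CPM with NIBR-LTSi. Every NIBR-LTSi library was above every DMSO library, as in 28% of tested genes. The mean went from 39.9 ± 2.0 to 47.9 ± 0.8 CPM (SD, n = 3 each), or 0.26 ± 0.05 (SE) as a log2 fold change (adjusted p = 0.00205; 95% interval of the fold 1.10 to 1.30). A larger log2 fold change was found in 22.1% of tested genes, so this rise is of ordinary size in this comparison.

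Vgll3 (Entrez 73569; chromosome 16, 65815189 to 65866368) had 2, 6 and 7 counts with DMSO and 11, 12 and 20 counts with NIBR-LTSi. Its levels were 0.0801, 0.333 and 0.330 CPM against 0.568, 0.491 and 0.731 CPM. The groups did not overlap, with DMSO replicate 1 far below the rest. The log2 fold change was 1.32 ± 0.47 (SE; adjusted p = 0.042; 95% interval of the fold 1.22 to 5.09). The call was lost in DESeq2 (adjusted p = 0.164) and without the low-count filter (adjusted p = 0.079). Leaving out any 1 NIBR-LTSi library also ended it (adjusted p = 0.0779, 0.0754 and 0.155 for replicates 1 to 3), as did leaving out DMSO replicate 1 (adjusted p = 0.176) or DMSO replicate 2 (adjusted p = 0.062). The other vestigial-like genes, Vgll1 and Vgll2, had 0 counts in all 6 libraries.

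Per length, Vgll4 was at 9.66 ± 0.48 and Yap1 at 9.61 ± 0.19 CPM per kb with DMSO, which did not differ beyond their spread. With NIBR-LTSi, Vgll4 was at 11.6 ± 0.2 and Yap1 at 8.93 ± 0.26 CPM per kb (SD, n = 3 each). The ratio of Yap1 plus Wwtr1 to Vgll4 was 1.01 ± 0.07 with DMSO and 0.814 ± 0.014 with NIBR-LTSi, and its groups did not overlap. This order depends on the length used: with GENCODE M21 exon lengths, Vgll4 was at 7.40 CPM per kb with DMSO, below Yap1, and at 8.87 CPM per kb with NIBR-LTSi, level with it. Below these lay Tead3 and Tead1, and then Wwtr1 and Tead4, whose levels did not differ beyond their spread in either group. Last came Tead2, which with DMSO did not differ from Tead4 beyond the spread, and Vgll3 (0.0349 ± 0.0205 CPM per kb with DMSO and 0.0839 ± 0.0173 with NIBR-LTSi). Among the 18127 genes with any count, 26.2% had a higher mean level per length than Vgll4 with DMSO, 26.3% than Yap1, 31.8% than Tead3 and 52.3% than Tead1. For Wwtr1 this share went from 72.2% with DMSO to 62.7% with NIBR-LTSi, and for Tead4 from 72.9% to 62.8%. These 2 members thus stayed in the lower part of the expressed genes in both groups.

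**Figure D3:**
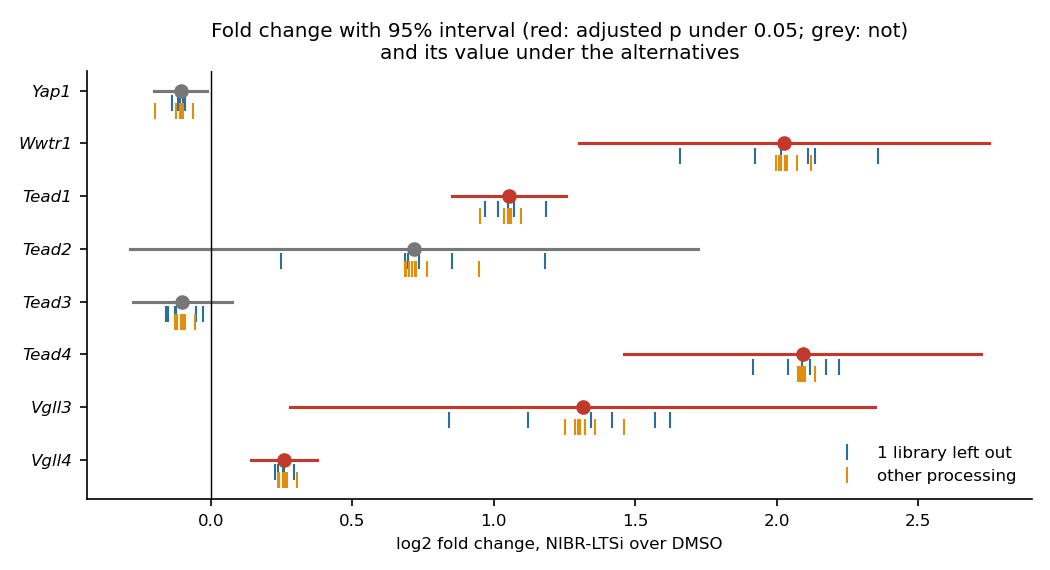
Log2 fold change of each factor, NIBR-LTSi over DMSO (x axis), as a point with its 95% interval, red where the adjusted p was under 0.05. The ticks under each point are the same value with 1 library left out (blue) and under the other processing alternatives (orange). The points and ticks of Wwtr1, Tead1, Tead2, Tead4, Vgll3 and Vgll4 stay to the right of 0 throughout, though the interval of Tead2 crosses 0. The points of Yap1 and Tead3 lie at -0.11 and -0.10.

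The genes with profiles most like each called member over the 6 libraries were found by the distance between centred log2 CPM values. The candidates were 11200 tested genes with a mean of at least 1 CPM. The members themselves and gene models without a proper name (Gm, Rik or Entrez numbers only) were left out. Distance is given as a root mean square on the log2 scale, and the points share libraries and depth. A called member's profile holds its change between the groups, so near genes are also genes of like fold change. For Tead1, at a log2 fold change of 1.05, the 3 nearest were at 1.017, 1.002 and 1.075. The likeness is therefore not a result separate from the fold change. For Wwtr1 they were Wtip (distance 0.184), a LIM protein of the Ajuba family, Nos2 (0.219), the inducible nitric oxide synthase, and Arhgap6 (0.262). For Tead4 they were Col4a2 (0.092), a collagen IV chain, Ripply3 (0.117) and Sorbs2 (0.122), and for Tead1 they were Ap1s3 (0.044), an adaptor subunit of vesicle coats, Igsf9b (0.055) and Nup210 (0.062), a nuclear pore protein. Wtip, the closest to Wwtr1, went from 2.17 ± 0.57 to 8.42 ± 0.44 CPM, and Ap1s3 from 7.22 ± 0.82 to 14.6 ± 0.3 CPM (SD, n = 3 each). For Vgll4 they were Kif1c (0.018), a kinesin, Eps8 (0.018), an actin regulator of microvilli, and Myo1d (0.019), a class I myosin. For Vgll3 they were Ly6a (0.238), which encodes Sca-1, Lrrc27 (0.247) and Ces2f (0.25). The distances for Vgll3 and for Wwtr1 were the largest among the called members, which makes the likeness loose for both.

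The surrounding pathway was counted in 4 lists. Of the 30 tested genes among 32 of the Hippo kinase cassette and its upstream regulators, 5 were called higher and 5 lower (16.7% each), with a median log2 fold change of 0.04 beside 0.02 over all tested genes. Both shares were below those of all tested genes, 22.8% higher and 19.2% lower. Those higher were the scaffolds Wwc1 and Wwc2, the kinase gene Lats2, and the LIM protein genes Ajuba and Wtip, which restrain LATS. Wwc2 rose 15.7-fold (adjusted p = 4.90e-10), Ajuba 10.01-fold (adjusted p = 1.77e-10) and Wwc1 2.91-fold (adjusted p = 8.04e-10), each more than Tead1. Tnik, Rassf6, Stk25, Stk38 and Stk38l were lower, by 0.13 to 0.32 on the log2 scale, and were named with Lats2 and Wtip after their values were seen. The upward changes were therefore few and large and the downward ones small. With library totals only the counts were 8 higher and 2 lower, and with DMSO replicate 3 left out 8 were higher. The count lower was 1, 2 and 3 when DMSO replicate 1, NIBR-LTSi replicate 1 and NIBR-LTSi replicate 3, in this order, were left out.

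Genes of proteins that sequester, modify or degrade YAP and TAZ were called higher in 8 and lower in 2 of 26 tested cases among 29 listed symbols (30.8% and 7.69%, beside 22.8% and 19.2% of all tested genes; median log2 fold change 0.07). The angiomotin Amotl2, which binds YAP outside the nucleus, rose 7.15-fold (adjusted p = 4.22e-10). The tight-junction scaffold Patj rose 1.36-fold (adjusted p = 4.89e-05) and the alpha-catenin gene Ctnna1 1.20-fold (adjusted p = 5.02e-05). Genes of the turnover machinery (Btrc, Fbxw11, Skp1, Cul1, Csnk1d and Csnk1e) were not called, and of 6 14-3-3 genes other than Sfn, Ywhae was higher (log2 fold change 0.10) and Ywhab lower (-0.14), all named after their values were seen. In DESeq2, with DESeq2 size factors, and without DMSO replicate 1, NIBR-LTSi replicate 1 or NIBR-LTSi replicate 3, 5 were higher. The count lower was 1 with library totals only and without DMSO replicate 1, NIBR-LTSi replicate 2 or NIBR-LTSi replicate 3.

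Of the 29 tested genes among 40 TEAD and YAP co-factors and DNA-binding partners, 5 were called higher and 6 lower (17.2% and 20.7%; median log2 fold change 0.01). Both shares were near those of all tested genes (22.8% and 19.2%). Those lower were Fos, Jun, Junb and Jund, which encode AP-1 subunits, the beta-catenin gene Ctnnb1 and the repressor gene Prdm1. Fos was 1.79-fold lower (adjusted p = 1.37e-08), Jun 1.88-fold (adjusted p = 2.52e-08) and Junb 1.45-fold lower (adjusted p = 1.41e-06), and Jund fell by 0.33 on the log2 scale. Ctnnb1 fell by 0.14 (adjusted p = 0.00355) and Prdm1 by 0.39 (adjusted p = 0.0489) on the same scale. Jund, Ctnnb1 and Prdm1 were named having seen their values. The AP-1 genes Fosl1 and Fosl2 and the co-activator genes Ncoa1, Ncoa2 and Ncoa3 were not called, and were likewise named after the fact. Those higher were Klf4, Irf2bp2, Ctbp2, Smarca4 and Runx1, with log2 fold changes of 0.15 to 0.63, also named after their values were seen. The count higher was 2 in DESeq2, and 3 after the width adjustment and without any 1 library other than DMSO replicate 3.

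Of the 14 tested genes of a 22-gene YAP and TAZ target signature, 9 were called higher and 1 lower. These are 64.3% and 7.14%, beside 22.8% and 19.2% of all tested genes, and the median log2 fold change was 0.94. The other signature genes fell below the filter on low counts. Arhgef17 (called higher) and Igfbp3 (not called) averaged 0.299 and 0.351 CPM with DMSO and 0.960 and 0.649 CPM with NIBR-LTSi. Both were named after their values were seen. They reached the filter's minimum in all libraries of the NIBR-LTSi group only, so the counts and the median carry that selection. Amotl2, which is also in the sequestration list, had the smallest p, followed by Ccn1, a secreted matricellular protein (2.85-fold, adjusted p = 2.04e-08), and F3, the gene of tissue factor (1.99-fold, adjusted p = 4.64e-07). Lats2, named after its values were seen, is also in the Hippo kinase list and counts as higher in both. After the width adjustment 2 were lower. Tead1 (2.08-fold) lay between F3 and Ccn1 in the size of its rise.

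**Figure D4:**
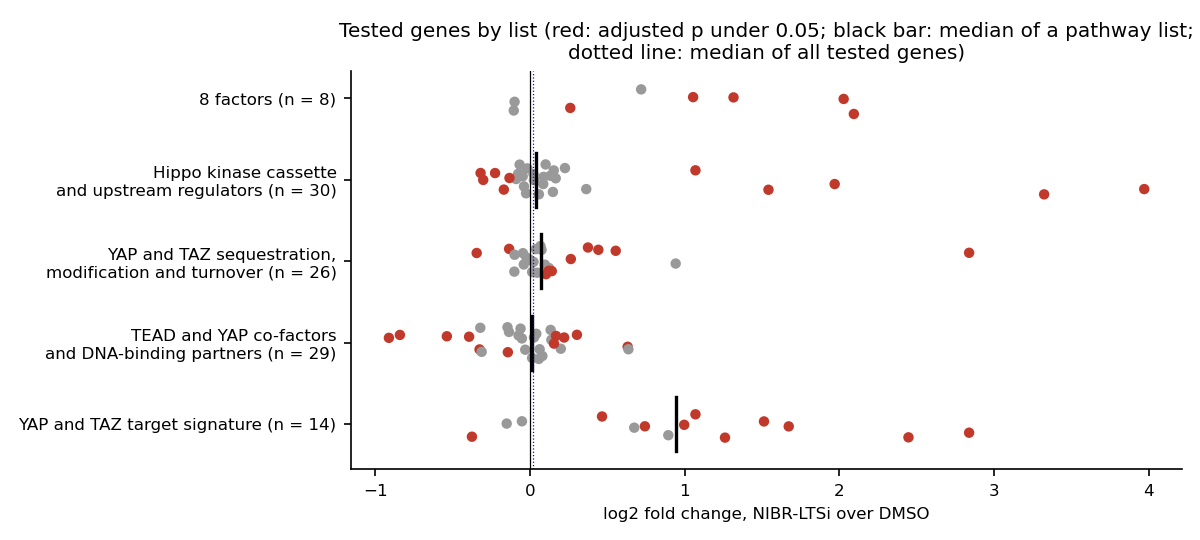
Log2 fold change, NIBR-LTSi over DMSO (x axis), of the 8 factors and of the tested genes of 4 pathway lists. Red points passed an adjusted p of 0.05, black bars are the medians of the pathway lists, and the dotted line is the median of all tested genes (0.02). The medians of the kinase, sequestration and co-factor lists lie near 0, with Wwc2, Ajuba and Amotl2 far to the right and Fos and Jun farthest to the left, and the target signature has its median at 0.94.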

How the data were processed

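RNA was measured by sequencing of 3 DMSO and 3 NIBR-LTSi libraries. Per the labels' protocols, organoids were digested to single cells, RNA was purified on columns, and 200 ng per sample entered a stranded messenger RNA kit. The authors deposited whole-number read counts per gene with a gene width; per the submitters' processing notes the build was mm10 and edgeR was used. Which aligner, counting tool or strand option was used is not given in the sources used here.

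Counts were scaled by TMM and filtered with filterByExpr (12592 genes left). They were tested with edgeR 4.0.16 in R 4.3.3 (robust quasi-likelihood F-test, group only, 4 residual degrees of freedom). The SE was calculated back from the F statistic and is approximate. Depth was 18395427 to 26767043 counts per library. No pair of replicates agreed within sampling noise (chi-square per degree of freedom 4.65 to 11.9). The procedure was also run on simulated counts with 200 changed genes, far fewer than were called here. No outcome of that run is used here. Deposited widths equalled the GENCODE M21 exonic length for 5 of 8 members. Gene positions are from RefSeq, GRCm38.p6.

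Named genes are the 8 members, the 3 smallest p-values per list and the 3 nearest profiles per called member; other pathway genes are said to be named after their values were seen. Members and lists were chosen with earlier results of these data known.

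Alternatives were DESeq2 1.42.0, limma-voom (limma 3.58.1), other scalings and filters, a replicate block, a gene width adjustment, and each library left out.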

Additional observations from a re-analysis of the deposited data

How the results depend on the processing

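Wwtr1, Tead1, Tead4 and Vgll4 were called higher under every alternative run, with log2 fold changes of 1.66 to 2.36, 0.97 to 1.18, 1.92 to 2.22 and 0.23 to 0.30 when 1 library was left out. Tead2 (0.25 to 1.18) and Tead3 (-0.16 to -0.03) were not called in any, though with at least 1 CPM in 3 libraries Tead2 and Vgll3 were not tested. Vgll3 lost its call in DESeq2 (log2 fold change 1.29), without the low-count filter (1.30) and with the replicate block (1.30, adjusted p = 0.0624), and ranged from 0.84 to 1.62 with 1 library left out. Yap1 gained a call with DESeq2 size factors (-0.12) and the gene width adjustment (-0.20), which makes 1 member lower in each, and ranged from -0.14 to -0.0897 with 1 library left out (0 to 1 members lower, 4 to 5 higher). The cause was not tested.

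The replicate numbers were not taken as pairs: deviations of same-numbered libraries correlated at 0.048, -0.296 and 0.562. Those of differently numbered libraries ran from -0.553 to 0.528. The replicate block changed no other call of a member, and gave 2687 genes higher and 2258 lower against 2866 and 2421; with 1 library left out these ran from 2201 to 2768 and from 1934 to 2340.

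In the Hippo kinase list the counts were 8 higher and 2 lower with library totals only, and 5 to 8 and 1 to 4 with 1 library left out. In the sequestration list they were 5 higher in DESeq2 and with DESeq2 size factors, 1 lower with library totals only, and 5 to 8 and 1 to 3 with 1 library left out. In the co-factor list they were 2 higher in DESeq2, 3 after the width adjustment, and 3 to 7 and 5 to 7 with 1 library left out. In the target signature they were 2 lower after the width adjustment and 9 to 11 higher with 1 library left out.

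With GENCODE M21 exonic length, levels moved for Tead1 (1.34 and 2.79 CPM per kb with DMSO and NIBR-LTSi), Tead3 (4.59 and 4.27) and Vgll4 (7.40 and 8.87). Shares of the TEAD sum became 21.9 and 36.5% for Tead1, 74.99 and 55.6% for Tead3, 1.79 and 6.28% for Tead4, and 1.65% for Tead2 with NIBR-LTSi; Vgll3 became 0.938% of the VGLL sum with NIBR-LTSi. Depth limits Wwtr1, Tead2, Tead4 and Vgll3, which had 36, 23, 26 and 15 counts over the DMSO libraries.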
